A study of Mus musculus with 4 samples.

Results

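The genes described here are 7 transcription factors and markers of primitive endoderm, Gata4, Gata6, Sox7, Sox17, Dab2, Cubn and Thbd. They were picked by name from the 11747 rows of the deposited table, and all 7 had a row. They were chosen with their values in these libraries known, in particular the difference between the libraries numbered 7 and 8 and those numbered 1 and 2, so that difference is described and not tested. RNA came from motor neuron cultures of 1 engineered mouse embryonic stem cell line, derived from the A172LoxP line, in which doxycycline switches on a transgene for a transcription factor. All cultures were embryoid bodies, floating cell aggregates, exposed for 2 days to retinoic acid (all-trans, 0.5 µM) and to purmorphamine (1 µM), which activates the Sonic hedgehog pathway. The following 2 to 3 days were spent with 2 µg/mL doxycycline (libraries 2 and 8) or with vehicle (libraries 1 and 7). The vehicle cultures carry the same transgene. Each group has 2 libraries, and the labels do not say whether these came from separate cultures or what the library numbers stand for.

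Primitive endoderm is the extraembryonic lineage that leaves the inner cell mass before implantation and forms the visceral and parietal endoderm of the yolk sac. GATA factors act first in its specification, SOX factors of group F follow, and the differentiated cells lay down basement membrane and take up nutrients by receptor-mediated endocytosis. Cells of this kind commonly form the outer layer of embryoid bodies, so their genes can be read in whole-culture RNA beside those of neurons. Each of the 7 genes is also used outside this lineage, Gata4 and Gata6 in heart, Sox7, Sox17 and Thbd in endothelium, and Dab2 and Cubn in kidney.

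The label was set beside marker lists. The lists were chosen with earlier results of these data known, so the counts of listed genes describe the table and do not test the label. Of 26 primitive endoderm genes, the 7 included, 25 were listed, the exception being Amn, the partner of cubilin. Of the 16 endothelial markers 6 were listed, among them Cdh5, Kdr, Flt1 and Tek, and Pecam1, Tie1 and Emcn were not. Of the 16 cardiac and early mesoderm markers 5 were listed, among them Tbx20 and Hand2, and Nkx2-5, Tnnt2 and Myl7 were not. Of the derivatives of the lineage, 22 of 22 parietal but only 13 of 28 visceral endoderm genes were listed. The labelled neurons were also measured, with 9 of 10 motor neuron and 12 of 12 pan-neuronal genes listed. The lowest mean of any row was 40.1 normalized counts, so a gene that was not listed may still have been expressed at a lower level. Normalized read counts, by their values gene read counts divided by a size factor of each library, summed to between 26449555 and 27047458 per library, from an estimated 22434840 to 30236583 reads.

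Promoter windows were kept for only 2 of the 7 genes, the endocytic partners Dab2 and Cubn, and are shown as a description. For the 7 genes, windows on a single chromosome were left out, so a window of another of them may be missing. The shares of all windows given below kept that chromosome. A link between motif matches and the differences between library numbers (0.98 for Dab2 and 0.22 for Cubn on the log2 scale) was not tested. The windows run from 250 bases before to 50 bases after an annotated start, in the gene's own direction, from RefSeq on GRCm38.p6, which is not the mm9 build named for the table. Capitals mark matches to the GATA motif, searched on both strands in its 4 forms, of which the first was AGATAA, the next differed in its last base and read AGATAG, and the remaining pair began with T and read TGATAA and, with the other last base, TGATAG. The first Dab2 window lies at chr15:6299539-6299838 and the second at chr15:6386498-6386797, both on the plus strand. The Cubn window lies at chr2:13491827-13492126 on the minus strand.
Dab2, first start: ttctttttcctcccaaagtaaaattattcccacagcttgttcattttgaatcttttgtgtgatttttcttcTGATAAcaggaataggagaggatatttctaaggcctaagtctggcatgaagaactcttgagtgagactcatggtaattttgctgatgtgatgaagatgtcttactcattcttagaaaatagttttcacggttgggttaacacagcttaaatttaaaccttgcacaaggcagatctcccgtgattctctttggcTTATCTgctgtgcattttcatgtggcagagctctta
Dab2, second start: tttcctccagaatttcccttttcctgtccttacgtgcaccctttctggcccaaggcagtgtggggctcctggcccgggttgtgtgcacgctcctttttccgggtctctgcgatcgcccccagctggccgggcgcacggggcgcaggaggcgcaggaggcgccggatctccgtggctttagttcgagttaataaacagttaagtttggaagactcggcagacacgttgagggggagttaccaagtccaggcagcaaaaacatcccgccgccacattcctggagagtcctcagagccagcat
Cubn: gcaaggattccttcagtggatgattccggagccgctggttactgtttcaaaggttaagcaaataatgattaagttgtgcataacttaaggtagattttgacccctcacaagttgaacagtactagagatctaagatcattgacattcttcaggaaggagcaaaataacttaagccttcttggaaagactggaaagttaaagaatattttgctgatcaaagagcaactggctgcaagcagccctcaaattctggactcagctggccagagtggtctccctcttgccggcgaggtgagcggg
The first Dab2 window held 2 GATA matches, TGATAA beginning 179 bases before the start and AGATAA on the opposite strand within the first 50 bases after it. The second Dab2 window and the Cubn window held none. A match was present in 29.8% of the 32851 promoter windows of the same length, so a match here is a common feature and says nothing of binding. The SOX motif AACAAT, on both strands, was in none of the 3 windows and in 10.7% of all windows.

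All 7 genes were higher in libraries 7 and 8 than in libraries 1 and 2, while doxycycline was not followed by a change that passed the test in any of them. In every one of the 7 both libraries 7 and 8 lay above both libraries 1 and 2, an arrangement found in 16.5% of all rows, while the opposite one was found in 16.1%. Since the genes were chosen with this difference known, nothing is read from that count. The median difference over the 7 genes was 0.82 on the log2 scale, where the median of all rows was -0.01. These are values of whole cultures, in which fewer cells of a type and less RNA per cell cannot be told apart.

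**Figure D1:**
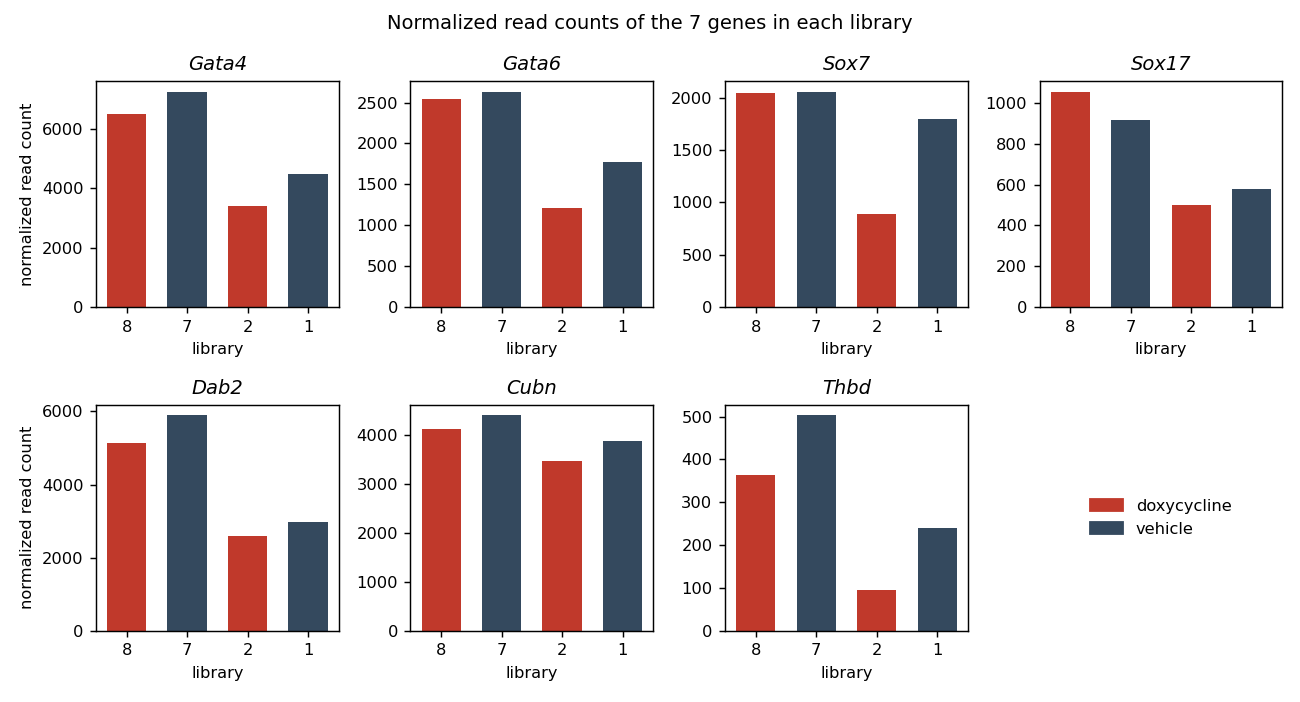
Normalized read counts (vertical axes, starting at 0, 1 scale per gene) of the 7 genes in libraries 8, 7, 2 and 1 (horizontal axes), red for doxycycline and dark grey for vehicle. Each bar is 1 library; in every panel the bars of libraries 8 and 7 stand above those of 2 and 1, and library 2 is lowest.

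The GATA factors moved almost in parallel. Gata4, a zinc finger factor of early endoderm and heart, had 6476 normalized counts in library 8 and 3382 in library 2 with doxycycline, against 7239 in library 7 and 4460 in library 1 with vehicle. Gata6, which initiates the primitive endoderm programme, had 2539 in library 8 and 1208 in library 2 with doxycycline, against 2632 in library 7 and 1777 in library 1 with vehicle. For both genes libraries 7 and 8 were high and library 2 was the lowest, and the treatment groups overlapped. The difference of libraries 7 and 8 minus libraries 1 and 2 was 0.82 for each gene, and 109 and 111 of the 11747 rows had a difference at least as large as Gata6 and Gata4. The ratio of Gata4 to Gata6 counts, which depends on transcript length and is read only for its change between libraries, was 2.55 in library 8 and 2.80 in library 2 with doxycycline, against 2.75 in library 7 and 2.51 in library 1 with vehicle. Its highest value was 1.11 times its lowest.

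The group F SOX factors were less alike. Sox17, a regulator of endoderm and of haemogenic endothelium, had 1054 normalized counts in library 8 and 498 in library 2 with doxycycline, against 914 in library 7 and 576 in library 1 with vehicle. It alone of the 7 genes was higher with doxycycline in one numbered pair, by 0.21 in library 8 minus library 7, and lower in the other, by -0.21 in library 2 minus library 1. Sox7, a related factor induced during endoderm differentiation, had 2050 in library 8 and 887 in library 2 with doxycycline, against 2057 in library 7 and 1794.5 in library 1 with vehicle. Here 3 libraries were close together and library 2 stood apart at 49.4% of the level of library 1. As a result the difference between library numbers was 1.21 for Sox7 among doxycycline libraries (8 minus 2) and 0.20 among vehicle libraries (7 minus 1). Leaving out library 2 lowered its difference of 0.70 to 0.19, and leaving out library 1 raised it to 1.21. The ratio of Sox7 to Sox17 was 1.94 in library 8 and 1.78 in library 2 with doxycycline, against 2.25 in library 7 and 3.11 in library 1 with vehicle, a range of 1.75 times.

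The endocytic genes separated from each other. Dab2, the clathrin adaptor that links cargo receptors of the LDL receptor family to the endocytic coat, had 5131 normalized counts in library 8 and 2597 in library 2 with doxycycline, against 5888 in library 7 and 2986 in library 1 with vehicle. Its difference between library numbers was nearly the same in both treatments, 0.98 for 8 minus 2 and 0.98 for 7 minus 1, and its difference between treatments was -0.20 in both pairs. Cubn, the receptor for vitamin B12 bound to intrinsic factor that works with Amn and megalin, had 4118 in library 8 and 3453 in library 2 with doxycycline, against 4388 in library 7 and 3877 in library 1 with vehicle. Libraries 7 and 8 again lay above 1 and 2, but by 0.22, a difference that 10.7% of all rows reached. The ratio of Dab2 to Cubn was 1.25 in library 8 and 1.34 in library 7, against 0.752 in library 2 and 0.770 in library 1.

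Thbd, the thrombin receptor thrombomodulin, a surface marker of parietal endoderm and endothelium, had the largest difference with all 4 libraries. It had 363 normalized counts in library 8 and 95.5 in library 2 with doxycycline, against 502 in library 7 and 239.5 in library 1 with vehicle. These correspond to about 411 reads in library 8 and 81 in library 2, against 468 in library 7 and 268 in library 1, the fewest of the 7 genes. Libraries 7 and 8 were 2.81-fold higher than 1 and 2 on the scale of normalized count + 1, a log2 difference of 1.49, and 12 rows of the table, Thbd included, had a difference as large. The difference was 1.91 among doxycycline libraries and 1.07 among vehicle libraries. Without library 2 it was 0.83, below the 0.88 of Dab2, and the difference of Gata6 was then 0.54. With library 2, 8, 1 or 7 left out in turn, both remaining sides stayed apart for all 7 genes, with differences from 0.13 for Cubn without library 2 to 2.15 for Thbd without library 1.

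**Figure D2:**
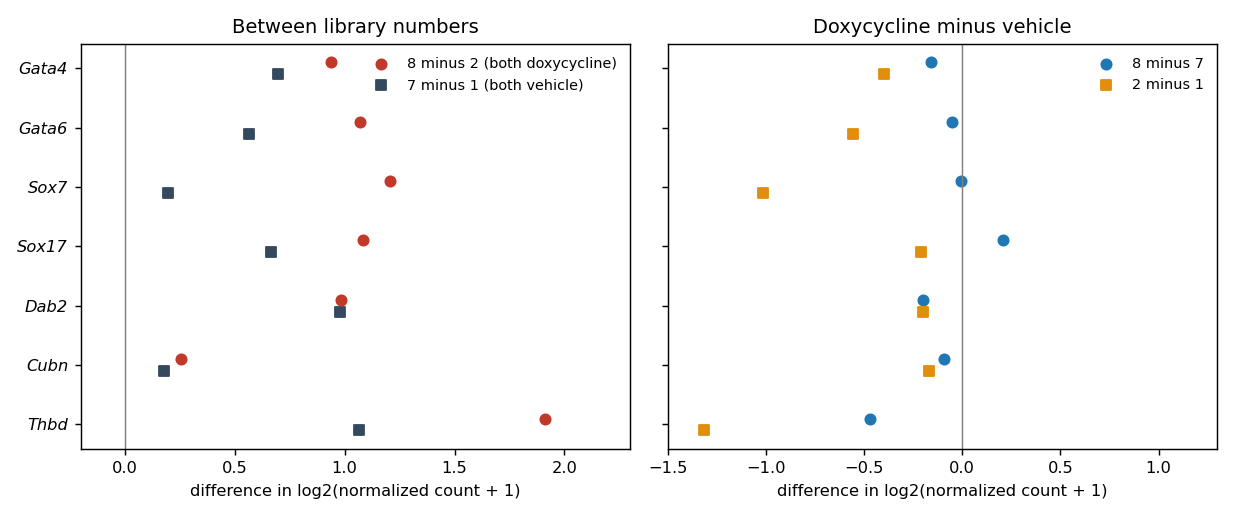
Differences between single libraries for the 7 genes, in log2(normalized count + 1) (horizontal axes). The left panel shows 8 minus 2 (circles) and 7 minus 1 (squares), all above 0; the right panel shows doxycycline minus vehicle as 8 minus 7 (circles) and 2 minus 1 (squares), where every square lies to the left of its circle, though for Dab2 they almost coincide.

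Doxycycline was compared with vehicle to find genes regulated by the induced factor. None of the 7 genes passed the limma test with Benjamini-Hochberg adjustment over all rows at 0.05, where 2.37% of all rows passed (0.579% higher and 1.79% lower with doxycycline). None had an unadjusted limma p under 0.05, which 21.1% of all rows had. The difference between library numbers, known when the genes were chosen, lies inside both treatment groups and adds to the SE. The median SE of all rows was 0.098. Failing the test is therefore no sign that doxycycline had no effect. The values were -0.28 ± 0.35 (log2 difference ± SE, n = 2 per group) for Gata4 and -0.30 ± 0.36 for Gata6. They were -0.51 ± 0.37 for Sox7 and 0.00 ± 0.38 for Sox17, whose value lay just below 0 and just above 0 with TMM or quantile scaling. They were -0.20 ± 0.41 for Dab2, -0.13 ± 0.11 for Cubn and -0.89 ± 0.65 for Thbd. The limma adjusted p was lowest for Sox7 (0.481) and Thbd (0.490) and highest for Sox17 (0.997). The 95% intervals had a median width of 1.80, and ran from -0.40 to 0.14 for Cubn, from -1.13 to 0.58 for Gata4 and from -1.41 to 0.39 for Sox7. With 2 libraries on each side the smallest p that exact permutation allows a single gene is 0.333. The treatment groups overlapped in 7 of 7 genes and in 46.8% of all rows. Each treatment group holds a library from the higher numbered pair and a library from the lower numbered pair. Where the higher pair lies wholly above the lower, as in all 7 genes, the treatment groups must overlap. The count of 7 therefore follows from the choice of genes and says nothing about doxycycline.

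Within the numbered pairs the doxycycline values were mostly below 0. Doxycycline libraries were lower than vehicle libraries in both pairs for 6 of the 7 genes, which held for 36.5% of all rows, and Sox17 was the exception. The size differed between the pairs. Library 2 minus library 1 had a median of -0.40 over the 7 genes, and library 8 minus library 7 a median of -0.09. In all 7 genes the value was lower in the pair 1 and 2 than in the pair 7 and 8, which 49.9% of all rows showed, although for Dab2 the pairs differed only in the third decimal. Library 2 held the lowest value of the 4 libraries in 7 of 7 genes and in 21.4% of all rows. Where libraries 7 and 8 both lie above 1 and 2, only library 1 or 2 can be lowest, so these shares are not alike. The sign of the doxycycline values in the limma fit changed with the libraries kept. With 1 library left out, the groups are no longer balanced over the library numbers, so the difference between those numbers enters the value. Without library 2 the value was above 0 for 6 of the 7 genes, with a median of 0.19, and for Cubn it was 0.00, just below 0. Without library 7 it was above 0 for Gata4, Sox17 and Dab2, and without library 1 or 8 it was below 0 for all 7. Without library 8, Sox7 passed the test (-1.12, limma, adjusted p = 0.0484), a fit that keeps only library 2 with doxycycline.

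**Figure D3:**
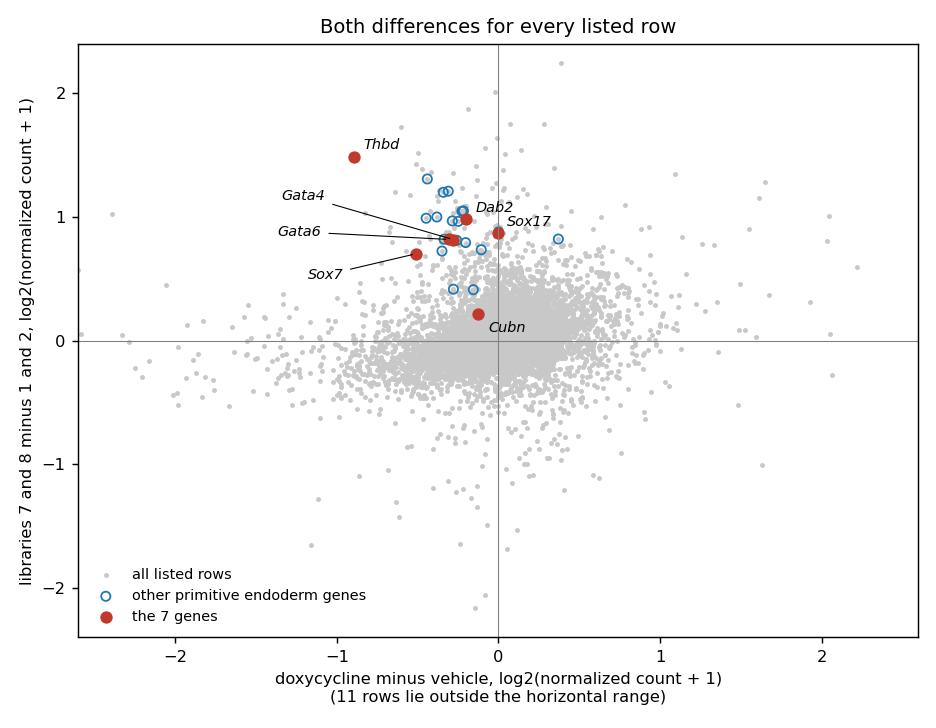
Doxycycline minus vehicle (horizontal) and libraries 7 and 8 minus 1 and 2 (vertical), both in log2(normalized count + 1), for all listed rows (grey), the 7 genes (red) and 18 other primitive endoderm genes (blue rings); 11 rows lie outside the horizontal range. The 7 genes lie above 0 vertically and at or left of 0 horizontally, with Thbd farthest out and Cubn nearest to the bulk of rows.

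Other genes of the lineage had similar values. Of the 19 further genes on the primitive endoderm list 18 were listed. In 18 of 18 genes libraries 7 and 8 lay above 1 and 2 (16.5% of all rows), with differences from 0.41 to 1.31 and a median of 0.92. These 18 genes were also chosen with earlier results of these data known, so nothing is read from the count. Their mean log2 level was 13.4 in library 8 and 12.4 in library 2 with doxycycline, against 13.5 in library 7 and 12.8 in library 1 with vehicle. The basement membrane genes Nid1 (1.31), Col4a1 (1.21) and Col4a2 (1.20), which encode nidogen and type IV collagen chains, had the largest differences. Pdgfra, a receptor of the early primitive endoderm, had 2666 normalized counts in library 8 and 1304 in library 2 with doxycycline, against 3534 in library 7 and 1829 in library 1 with vehicle. None of the 18 passed the limma doxycycline test (2.37% of all rows), and none had an unadjusted p under 0.05 (21.1% of all rows). As for the 7 genes, the difference between library numbers adds to the SE, so failing the test is no sign that doxycycline had no effect. The same limit holds in the lists below for genes that differ between the library numbers. Their median doxycycline value was -0.27, where the median of all rows was 0.00, and 16 of 18 were lower with doxycycline in both pairs (36.5% of all rows). Library 2 was lowest in 17 of 18 (21.4% of all rows), where again only library 1 or 2 could be lowest. The exception was Foxa2, a forkhead factor of endoderm that also marks the floor plate of the neural tube, with 1283 in library 8 and 755 in library 2 with doxycycline, against 1032 in library 7 and 560.3 in library 1 with vehicle.

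The derivatives of primitive endoderm were compared by list. Of the 22 parietal endoderm genes all were listed. Many of the 21 besides Thbd, Col4a1 and Nid1 among them, are also on the primitive endoderm list, so the 2 lists are not independent. For 18 of the 21 genes libraries 7 and 8 lay above 1 and 2 (16.5% of all rows) and for 3 below (16.1%), with a median of 0.73. The 3 were the keratin genes Krt18 (-0.54), Krt19 (-0.44) and Krt8 (-0.27). These genes of a derivative of the lineage are not on the primitive endoderm list above, so its count of 18 of 18 leaves them out. Snai1, a zinc finger factor of parietal endoderm formation, resembled Sox7, with 865 in library 8 and 373 in library 2 with doxycycline, against 919 in library 7 and 777.5 in library 1 with vehicle. No parietal gene passed the limma doxycycline test or had an unadjusted p under 0.05 (21.1% of all rows). Of the 28 visceral endoderm genes 13 were listed, 10 with libraries 7 and 8 above 1 and 2 (16.5% of all rows) and 2 below (16.1%). Their median was 0.45. Afp, Ttr and Apoa1, abundant products of differentiated visceral endoderm, were not listed. Rbp4, the retinol carrier, had a difference of 1.16 and Fgfr4, a fibroblast growth factor receptor, one of 0.88, whereas Lefty1, an inhibitor of Nodal signalling, had one of -1.13. Apoe, a lipoprotein gene that is also expressed in neural cells, was the only visceral list gene past the doxycycline test, at 0.54 ± 0.08 (limma, adjusted p = 0.0405), and its call was lost without library 2, 8 or 1.

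**Figure D4:**
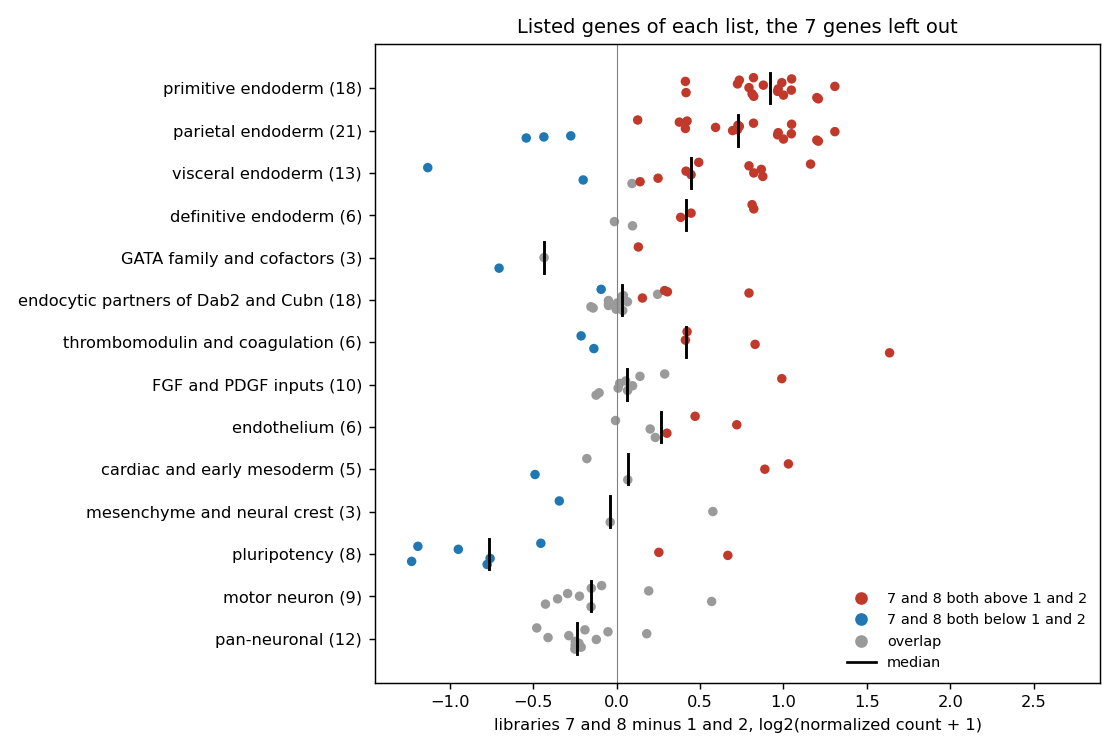
Libraries 7 and 8 minus 1 and 2 in log2(normalized count + 1) (horizontal) for the listed genes of each list, the 7 genes left out, with the number of genes in parentheses. Some genes are on more than 1 list. Red points have both libraries 7 and 8 above 1 and 2, blue points both below, grey points overlap, and black bars are medians; the primitive and parietal endoderm medians are 0.92 and 0.73 and the pluripotency median is -0.77.

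Relatives and partners of the 7 genes did not all share their values. Among the other GATA factors, Gata2 and Gata3, which act in blood and in spinal V2b interneurons, had differences of -0.70 and -0.43 between library numbers, and neither passed the doxycycline test (limma, no unadjusted p under 0.05 in the GATA list). Zfpm1, a GATA cofactor, was at 0.13. Sox18, the remaining group F factor, was not listed. Among 18 listed endocytic partners of Dab2 and Cubn, libraries 7 and 8 lay above 1 and 2 in 4 and below in 1, with a median of 0.03, where 16.5% of all rows lay above and 16.1% below. Lrp2, which encodes megalin, the co-receptor of cubilin and a cargo receptor for Dab2, had the largest difference, 0.79, with 2818 in library 8 and 1491 in library 2 with doxycycline, against 2976 in library 7 and 1871 in library 1 with vehicle. Its chaperone gene Lrpap1 was at 0.30 and the motor gene Myo6 at 0.29, while the general clathrin coat genes Cltc and Clta were at 0.06 and -0.05. None of the 18 passed the doxycycline test, and 4 had an unadjusted p under 0.05, Dab1, a neuronal relative of Dab2, and Ap2m1 among them, beside 21.1% of all rows.

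Genes of the coagulation pathway around thrombomodulin were listed in 6 of 13 cases. The prothrombin gene F2 (1.64) and the tissue factor gene F3 (0.83) were higher in libraries 7 and 8, and Plat and Tfpi were at 0.41 and 0.42, while Serpine2 and the thrombin receptor gene F2r were below 0. F2 had only 160 normalized counts in library 8 and 33.0 in library 2 with doxycycline, against 105 in library 7 and 50.9 in library 1 with vehicle. None of these 6 passed the limma doxycycline test or had an unadjusted p under 0.05 (21.1% of all rows). Of 10 listed genes of FGF and PDGF signalling, an input to primitive endoderm specification, Pdgfra alone had libraries 7 and 8 above 1 and 2, and the list's median was 0.06. Etv5, an FGF target that motor neurons also express, fell by 0.75 ± 0.12 with doxycycline (limma, adjusted p = 0.0458), a call lost whichever library was left out. In this list 8 genes had an unadjusted p under 0.05 (21.1% of all rows), 6 with lower values with doxycycline, Etv5 among them, and 2 with higher values, Pdgfa (0.43) and Fgfr1 (0.33).

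Markers of other cells moved between the library numbers too. Of 8 listed pluripotency genes libraries 7 and 8 lay below 1 and 2 in 6 (16.1% of all rows), with a median of -0.77, and Dppa5a (-1.23), Pou5f1 (-1.19) and Nanog (-0.95) had the largest differences. Klf4 (0.67) and Lin28a (0.25) were above 0. None of the 8 passed the limma doxycycline test, and none had an unadjusted p under 0.05 (21.1% of all rows). The 12 pan-neuronal genes had a median of -0.24 between library numbers, and the 9 motor neuron genes one of -0.15. Libraries 7 and 8 overlapped with 1 and 2 in all 12 and in all 9, as in 7921 of the 11747 rows. The treatment groups lay apart in every one of these genes, so that overlap had to follow. Inside the treatments the pan-neuronal medians were -0.27 (8 minus 2) and -0.18 (7 minus 1). Those of the motor neuron genes were -0.23 (8 minus 2) and -0.08 (7 minus 1). With doxycycline 10 of the 12 and 8 of the 9 fell in the limma test, with medians of -0.89 and -1.57, and without library 8 the counts were 5 and 6. Of 6 listed endothelial genes 3 had libraries 7 and 8 above 1 and 2 (16.5% of all rows), Flt1 (0.72), Tek (0.47) and Egfl7 (0.30). Cdh5 and Kdr were at 0.23 and -0.01. Of 5 listed cardiac and early mesoderm genes Tbx20 (1.03) and Meox1 (0.89) were above and Hand2 (-0.49) below. The part of these other cell types in the values of the 7 genes was not tested. Of 6 listed definitive endoderm genes 4 were above, Foxa2, Foxa1 and Epcam among them, with a list median of 0.42, and of 3 listed mesenchyme and neural crest genes none was above and Col3a1 (-0.34) was below. None of these last 4 lists held a gene past the limma doxycycline test, and at an unadjusted p under 0.05 there were 3 endothelial, 1 definitive endoderm and 2 mesenchyme genes and no cardiac or mesoderm gene, beside 21.1% of all rows.

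The rows most like the 7 genes were found by the root mean square distance between log2 values over the 4 libraries, each centred on its own mean. The mean profile of the 7 genes stood at 0.37 (library 8) and -0.70 (library 2) with doxycycline, against 0.48 (library 7) and -0.14 (library 1) with vehicle. Among the nearest named rows outside the 7 were Srgn (distance 0.020), which encodes serglycin, Fgfr4 (0.021), Epas1 (0.037), which encodes HIF-2 alpha, and Lifr (0.059), the receptor for leukaemia inhibitory factor. Srgn and Fgfr4 are on the endoderm lists above. The measure rests on 4 libraries only. Of the 7 genes, Gata6 (0.024) and Gata4 (0.059) lay nearest to the mean profile and Cubn (0.34) and Thbd (0.44) farthest. Cubn did so by smaller and Thbd by larger differences. Each of the 7 is part of that mean, so its distance cannot be set beside those of rows outside the 7.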

How the data were processed

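Total RNA of 4 libraries was prepared with the TruSeq protocol and sequenced by Illumina HiSeq, per the labels. DESeq, HTSeq, TopHat2, CASAVA and build mm9 are named, without versions or roles, per the submitters' processing notes. In the deposited table each row carries a signal, by its values a read count that the authors scaled by a size factor for each library. All values under 150 lay within 0.1 of a multiple of 1 step per library, read as 1 read, but no count model was fitted. Column letters gave the group; column numbers are not the labels' replicate numbers, so no column was tied to 1 sample. Estimated reads of libraries 2 and 8, and of 1 and 7, differed beyond counting error (chi-square per degree of freedom 28.3 and 26.4). The use of strand in counting is unknown here. A symbol came from the table for 11335 rows and by RefSeq accession for 375.

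Values were analysed as log2(normalized count + 1), without a filter, with limma 3.58.1 in R 4.3.3 (intensity trend, two-sided, Benjamini-Hochberg over 11747 rows, 2 residual and 3.83 prior degrees of freedom). The fit was also run on simulated data that held no difference between library numbers, so that run does not show how it performs for genes with one. The p-values of the limma fit reflect only how far these libraries vary, possibly for technical reasons. Python 3.11.15, pandas 2.3.3, numpy 2.4.6, scipy 1.17.1 and matplotlib 3.10.9 were used. Alternatives were pseudocounts of 0.5 and 5, a mean of at least 50, TMM and quantile scaling, robust or untrended priors, a pairing by column number and each library left out. Genes named beyond the 7 are up to 3 per list with the smallest doxycycline p, up to 3 with the largest difference between library numbers, and the 5 nearest profiles; others were chosen after their values were seen. The 7 genes and all lists were chosen with earlier results of these data known. The induced gene and 1 gene that this rule names are not reported here.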

Additional observations from a re-analysis of the deposited data

How the results depend on the processing

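With pseudocounts of 0.5 or 5, a mean of at least 50, and TMM or quantile scaling, no member passed the doxycycline test, libraries 7 and 8 lay above 1 and 2 in 7 of 7, and the numbers of calls over all rows stayed within 1.5 times. The priors moved the number of calls over all rows from 278 (68 higher and 210 lower) to 419 with robust empirical Bayes (132 higher) and to 105 without the trend (27 higher and 78 lower), again with no member called. With the replicate block by column number (1 with 2, 7 with 8), 3508 rows were called, 1636 higher and 1872 lower, and 5 members, Gata4, Gata6, Sox7, Dab2 and Thbd, passed as lower. Whether the numbers pair the libraries is not stated in the labels. Deviations from the group means correlated at 0.63 within number pairs, a value that 2 libraries per group make equal for both, and the fit has 1 residual degree of freedom. Leaving out 1 library gave 113 calls (16 higher, 97 lower) without library 2, 44 (2 and 42) without 8, 133 (33 and 100) without 1 and 494 (156 and 338) without 7, and 0 to 1 members called (Sox7 without library 8). A lone library is then assumed to vary like the others. The members' median difference between library numbers ranged from 0.62 to 1.08, and that of the 18 other primitive endoderm genes from 0.77 without library 2 to 1.14 without library 1. The cause was not tested. Among the 7 genes the fewest reads were those of Thbd in library 2, about 81, which limits its precision.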
